A study of Drosophila melanogaster with 12 samples.

Results

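Histone H3 occupancy at transposons and piRNA clusters was compared between enok knockdown (enok_KD) and control knockdown (GFP_KD) ovaries of Drosophila melanogaster by ChIP-seq. The comparison rests on the 4 libraries precipitated with the antibody against H3, 2 for each knockdown, out of 12 in the series. Of the other libraries, 4 were precipitated for the acetylated lysine 23 of H3 (H3K23ac) and are given only beside an H3 result, and 4 were input libraries that were not analysed here. Ovaries came from adult females of 2 to 3 days, with RNAi at 29 °C. All flies carried the somatic driver tj-GAL4 over a wild-type chromosome (tj-GAL4/+) and the germline driver P{w[+mC]=GAL4::VP16-nos.UTR}, inserted at CG6325[MVD1]. In trans to that insertion, GFP_KD flies carried P{VALIUM20-EGFP.shRNA.1}attP2, a hairpin against EGFP, and enok_KD flies carried P{TRiP.HMS02634}attP2, a hairpin against enok. Follicle cells and germ cells were therefore targeted together and are mixed in each library, many ovary pairs were pooled per replicate, and each knockdown is 1 hairpin in 1 genetic background. The tables hold no genes, so neither the knockdown of enok nor ovary markers could be checked in these libraries.

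Enok is a lysine acetyltransferase that acetylates lysine 23 of H3. Histone H3 is a core component of the nucleosome, and the reads recovered with an antibody against it follow both how densely a sequence is packed in nucleosomes and how much DNA of that sequence the nuclei hold. Transposons are grouped by how they move. LTR retrotransposons such as Gypsy, Pao and Copia have an internal part with the coding sequence between terminal repeats, LINE elements such as Jockey and R1 lack such repeats, and DNA transposons such as Tc1, P and Transib move without an RNA copy. In the ovary they are silenced by piRNAs, small RNAs cut from transcripts of piRNA clusters, which are long loci filled with transposon fragments. Input libraries were not used here, so a difference in H3 occupancy and a difference in the number of mappable copies between the fly lines cannot be told apart.

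The libraries held 545531 and 628808 H3 reads on transposon elements in GFP_KD and 445973 and 411139 in enok_KD, and between 49811 and 72946 reads on piRNA clusters. Cluster reads made up 11.5% to 12.1% of the number of transposon reads in every library. Of 215 elements, 205 had a mean of at least 10 counts over the 4 libraries and were tested, and of 142 clusters 94 were tested. The 46 clusters on the unplaced scaffold U had no read in any library. Counts were scaled to the typical feature of each table, so that a change is relative to the other elements or clusters, and the values below are counts normalised in this way unless they are called log2 fold changes. The replicates of enok_KD differed more from each other than those of GFP_KD. The SD of the log2 difference between replicates over features was 0.342 in enok_KD and 0.213 in GFP_KD at transposons, and 0.319 and 0.180 at clusters. These deviations in enok_KD went with those of the H3K23ac libraries of the same number over 201 elements (Pearson's r = 0.714, a description across elements that share their libraries), whereas r was −0.101 in GFP_KD, and 0.249 and −0.140 in enok_KD and GFP_KD over 85 clusters.

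At transposons, H3 was higher upon enok knockdown at 22 of 205 elements (10.7%) and lower at 7 (3.41%), 29 in all (14.1%; edgeR quasi-likelihood test, Benjamini-Hochberg adjusted p under 0.05). Those that rose included 2 of 5 satellites, 8 of 43 internal parts of Gypsy elements and both parts of Copia, while 4 of the 7 that fell were LINE elements of the Jockey group. Log2 fold changes ran from 0.48 to 1.41 for those that rose and from −0.61 to −0.43 for those that fell. Over all elements the median was −0.02, with 102 positive and 103 negative, and 40 higher and 29 lower elements had an unadjusted p under 0.05. Both enok_KD libraries lay above both GFP_KD libraries at 56 elements (27.3%) and below both at 69 (33.7%), so that the groups did not overlap at 125 (61%). The number of calls was 80 without enok_KD replicate 2 and 110 without replicate 1, with 27 and all 29 of the main calls among them, whereas it was 3 without GFP_KD replicate 1 and 0 without GFP_KD replicate 2 (15 at an unadjusted p under 0.05). These fits take the spread of the single library from the other group, and all 29 elements kept their direction in them. Scaling by total counts moved the median by −0.159 and gave 15 higher and 43 lower, and scaling by the cluster table gave 20 higher and 17 lower.

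**Figure D1:**
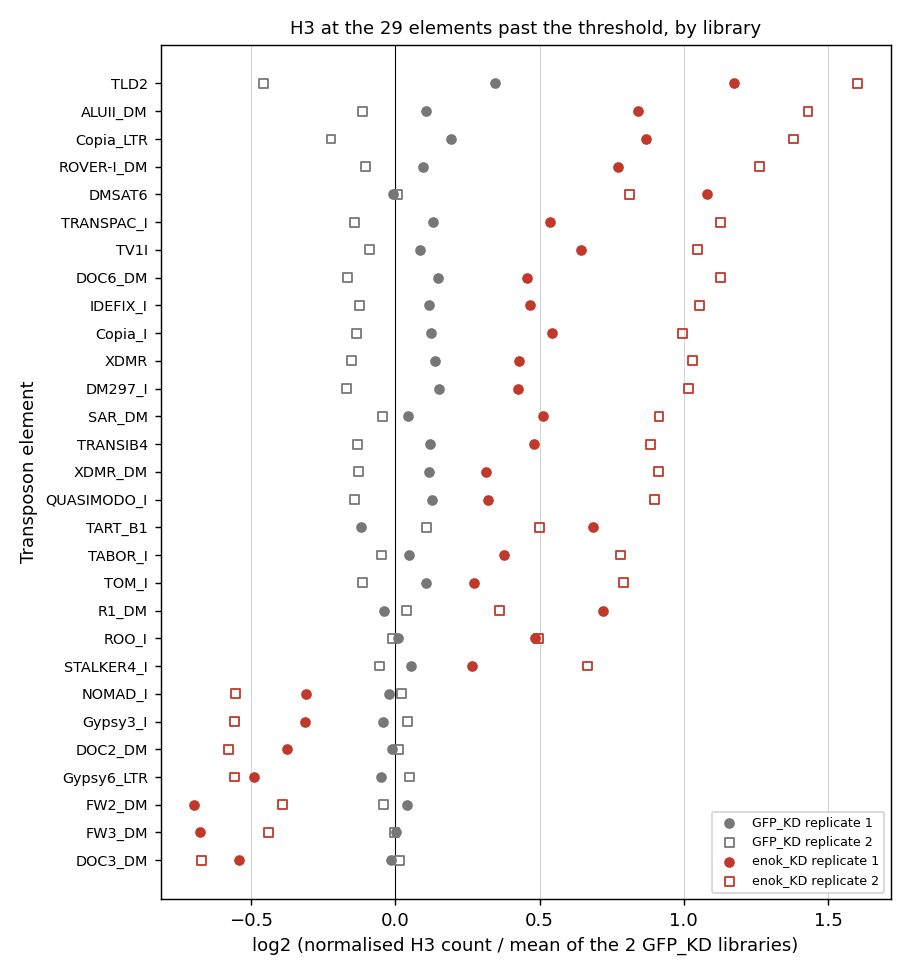
Normalised H3 count of each library at the 29 transposon elements past the threshold, as log2 of its ratio to the mean of the 2 GFP_KD libraries (x axis; grey, GFP_KD; red, enok_KD; filled circles, replicate 1; open squares, replicate 2). The elements were picked by a test on these same libraries, and no enok_KD point overlaps the GFP_KD points of its element, as at 61% of all tested elements. At 19 of the 22 elements that rose the enok_KD replicate 2 lies farther right than replicate 1.

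The rise was measured in both enok_KD libraries but was larger in replicate 2. Over the 22 elements that rose, the median log2 ratio to the GFP_KD mean was 0.50 in enok_KD replicate 1 and 0.95 in replicate 2, and replicate 2 was the higher of the pair at 19 of 22, as compared with 126 of all 205 elements. The 3 exceptions were the satellite DMSAT6, the telomeric element TART_B1 and R1_DM. Over the 7 elements that fell the medians were −0.49 and −0.56. The plot by library shows this spread for each element.

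ROVER-I_DM, the internal part of the Gypsy element rover, had the lowest p-value of all elements. Its normalised H3 counts were 7718 and 6715 in GFP_KD, against 12331 and 17300 in enok_KD, so the groups did not overlap and the enok_KD replicates differed more than the GFP_KD ones. The fitted log2 difference was 1.04 ± 0.16 (estimate ± SE, here and below; edgeR adjusted p = 1.71e-05), or 0.77 without enok_KD replicate 2 and 1.26 without replicate 1. It passed under 11 of 13 alternatives, the exceptions being the fits that left out 1 GFP_KD library. Copia, a retrotransposon with a virus-like life cycle, rose in both of its parts. Copia_LTR had 181 and 136 in GFP_KD, against 290 and 413 in enok_KD, a log2 fold change of 1.15 ± 0.21 (edgeR adjusted p = 0.000104). Copia_I had 2246 and 1881 as compared with 3008 and 4111, a log2 fold change of 0.79 ± 0.16 (edgeR adjusted p = 0.000467). The other 6 tested parts of Copia superfamily elements all had negative values that did not pass, from −0.49 to −0.08.

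Satellites, tandem repeats that fill much of the heterochromatin, took a larger share of the reads upon enok knockdown. Their 5 entries together held 7.31% ± 0.197 of the transposon reads in GFP_KD and 10.9% ± 1.39 in enok_KD (SD, n = 2). Of the 5, 2 rose (40.0%, as compared with 10.7% of all elements) and none fell, and the median log2 fold change was 0.65, as compared with −0.02 for all elements, and between 0.50 and 0.80 under the alternatives. DMSAT6 had 6418 and 6502 in GFP_KD, against 13648 and 11348 in enok_KD. This was a separation far beyond the replicates of either group, with a log2 fold change of 0.95 ± 0.15 (edgeR adjusted p = 1.71e-05), and it too was lost only in the fits that left out 1 GFP_KD library. SAR_DM had 27583 and 25983 in GFP_KD, against 38189 and 50462 in enok_KD, a log2 fold change of 0.73 ± 0.16 (edgeR adjusted p = 0.00122) that did not pass under 7 of 13 alternatives. Responder (RSP), the satellite that is the target of Segregation Distorter, had 428 and 352 in GFP_KD, against 427.7 and 679 in enok_KD. Its groups overlapped, with enok_KD replicate 2 high, and it did not pass (log2 fold change 0.50 ± 0.19, edgeR adjusted p = 0.0657). HSATII, at a mean of only 16.75 counts, had 0.65 ± 0.42, and this imprecise value is the satellite median given above. HETRP_DM had −0.07 ± 0.15 (0.02 without GFP_KD replicate 2). Neither of these passed.

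Of 9 tested entries labelled as of unknown class, 4 rose (44.4%, as compared with 10.7% of all elements) and none fell, with a median log2 fold change of 0.61. TLD2 had the largest log2 fold change of all, 1.41 ± 0.29 (edgeR adjusted p = 0.000467), from raw counts of 44, 29, 57 and 71 that leave the size of the change imprecise. ALUII_DM had 329 and 283 in GFP_KD, against 548 and 825 in enok_KD, with a log2 fold change of 1.17 ± 0.19 (edgeR adjusted p = 2.1e-05), and passed under 12 of 13 alternatives. Its enok_KD libraries lay well above the control and far apart from each other. XDMR and XDMR_DM had log2 fold changes of 0.76 and 0.64, which were 0.43 and 0.32 without enok_KD replicate 2. They passed under 7 and 4 of 13 alternatives.

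Gypsy elements, the largest superfamily with 92 tested entries, gave 9 that rose (9.78%) and 3 that fell (3.26%), shares close to the 10.7% and 3.41% of all elements, with a median log2 fold change of −0.04 that was 0.03 over entries with mean counts of 100 or more and 0.01 in the fit of 8 libraries. Those that rose beside ROVER-I_DM were TRANSPAC_I (0.86 ± 0.18), TV1I (0.86 ± 0.20), IDEFIX_I (0.79 ± 0.17), DM297_I (0.75 ± 0.17) and, named after their values were seen, QUASIMODO_I (0.64), TABOR_I (0.59), TOM_I (0.55) and STALKER4_I (0.48). Idefix is a relative of gypsy that is controlled in the follicle cells. Some other such elements, named after their values were seen, did not pass, with 0.20 at ZAM_I, −0.32 at ZAM_LTR, −0.33 at Gypsy_I, −0.40 at Gypsy_LTR and −0.36 at GTWIN_I. They are examples and not a full set. Which of the other Gypsy elements that rose are also controlled in the follicle cells was not looked at. IDEFIX_I had 1545 and 1307 in GFP_KD, against 1971 and 2960 in enok_KD, without overlap. Many of these values were smaller without enok_KD replicate 2. Without it the log2 fold changes were 0.54 for TRANSPAC_I, 0.47 for IDEFIX_I, 0.42 for DM297_I, 0.32 for QUASIMODO_I, 0.38 for TABOR_I, 0.27 for TOM_I and 0.27 for STALKER4_I. Of 13 alternatives, QUASIMODO_I passed under 7, TABOR_I and STALKER4_I under 5 each and TOM_I under only 2. The Gypsy elements that fell were Gypsy6_LTR (−0.52 ± 0.18), Gypsy3_I (−0.43 ± 0.15) and NOMAD_I (−0.43 ± 0.15). Each of them passed under only 5 of 13 alternatives. NOMAD_I had 8272 and 8526 in GFP_KD, against 6772 and 5719 in enok_KD, a smaller difference than those of the elements that rose but also without overlap.

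**Figure D2:**
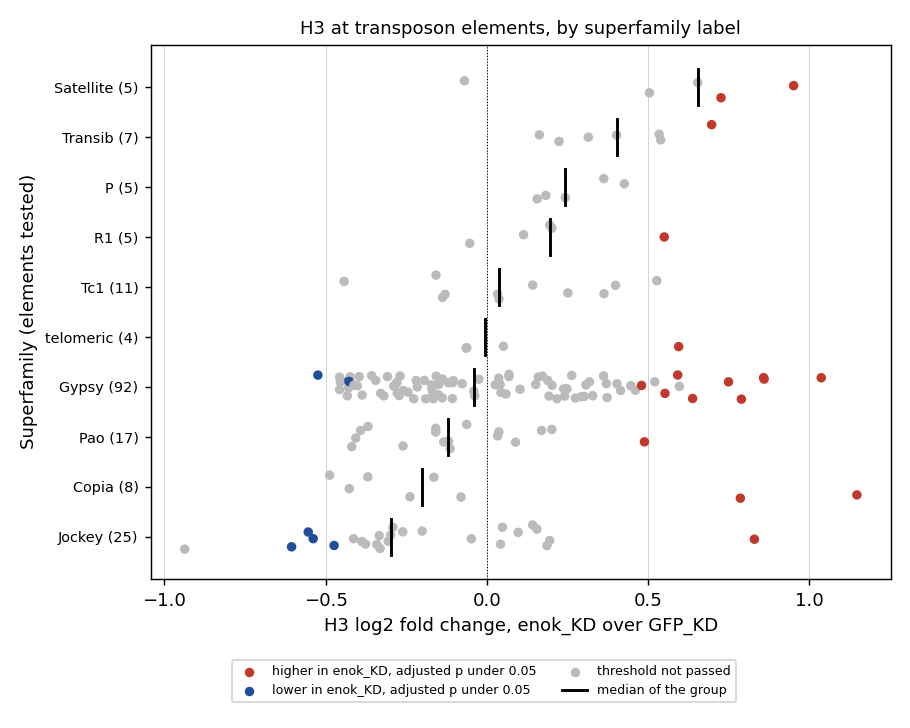
H3 log2 fold change of enok_KD over GFP_KD (x axis) for each tested transposon element, in rows by the superfamily label of its name for superfamilies with 4 or more tested elements. Red and blue points passed the threshold as higher and lower, grey points did not, and a bar marks the median of each row, from 0.65 for satellites to −0.30 for Jockey elements.

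Jockey elements, LINE elements to which the F element and Doc belong, went the other way. Of 25 tested, 4 fell (16.0%, as compared with 3.41% of all elements) and 1 rose, and 17 had negative values. At 15 (60.0%, as compared with 33.7% of all elements) both enok_KD libraries lay below both GFP_KD libraries. Their median log2 fold change was −0.30, and −0.46 to −0.24 under the alternatives, and their share of the reads went from 13.6% ± 0.0600 in GFP_KD to 10.2% ± 0.839 in enok_KD (SD, n = 2). DOC3_DM had 3557 and 3634 in GFP_KD, against 2470 and 2255 in enok_KD, with tight replicates in both groups and a log2 fold change of −0.61 ± 0.15 (edgeR adjusted p = 0.00299). It did not pass with a mean of at least 100 counts, in the fit of 8 libraries or without either GFP_KD library. The others that fell were FW3_DM (−0.55 ± 0.19), FW2_DM (−0.54 ± 0.19) and DOC2_DM (−0.47 ± 0.15), which passed under 5, 4 and 6 of 13 alternatives. The F element itself, FW_DM, and DOC, both named after their values were seen, had −0.38 ± 0.15 and −0.33 ± 0.15 and did not pass (edgeR adjusted p = 0.0762 and 0.107). The Jockey element that rose was DOC6_DM, with 510 and 410 in GFP_KD, against 631 and 1006 in enok_KD. Its log2 fold change of 0.83 ± 0.19 (edgeR adjusted p = 0.00159) was 0.46 without enok_KD replicate 2.

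DNA transposons had mostly positive values but few calls. Of 30 tested, 1 rose (3.33%, as compared with 10.7% of all elements) and none fell, 23 had positive values, and the median log2 fold change was 0.20. Their summed normalised counts were 29212 and 27139 in GFP_KD, against 29017 and 35439 in enok_KD, so that only enok_KD replicate 2 lay above both control libraries. All 7 Transib entries were positive, with a median of 0.40 that was 0.16 without enok_KD replicate 2 and 0.61 without replicate 1, and TRANSIB4 passed. It had 155.6 and 130.6 in GFP_KD, against 199.8 and 264.3 in enok_KD, a log2 fold change of 0.70 ± 0.21 (edgeR adjusted p = 0.0202) that passed under 6 of 13 alternatives. All 5 P entries were positive as well, with a median of 0.24 that was 0.05 without enok_KD replicate 2 and 0.48 without replicate 1, and none passed (1 at an unadjusted p under 0.05, and 0 with DESeq2 or voom). The 11 Tc1 entries had a median of 0.04, which was −0.12 under total counts, and none passed (3 at an unadjusted p under 0.05, and 0 with DESeq2 or voom).

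At the ribosomal DNA 1 of 7 tested elements rose, and at the telomeres 1 of 4, as compared with 22 of all 205. None fell in either group. Groups this small are too short for these counts to be read against that share. R1_DM, a LINE element that inserts into the 28S ribosomal RNA genes, had 29353 and 31028 in GFP_KD, against 49682 and 38764 in enok_KD. Its log2 fold change of 0.55 ± 0.16 (edgeR adjusted p = 0.0187) was 0.36 without enok_KD replicate 1 and did not pass under 9 of 13 alternatives. R2_DM, which inserts at a nearby site of the same genes, had −0.11 ± 0.15 (0.06 without enok_KD replicate 2), and 5S_DM, the 5S ribosomal RNA repeat, had −0.19 ± 0.16. The other 4 R1 entries, R1-2_DM and DMRT1A to DMRT1C, lay between −0.05 and 0.20. Summed over the 5 R1 entries, normalised counts were 58368.1 and 61184.5 in GFP_KD, against 87274.8 and 67745.9 in enok_KD, without overlap. R1_DM was the only R1 entry at which both enok_KD libraries lay above both GFP_KD libraries. The median log2 fold change of the 5 was 0.20, and −0.01 without enok_KD replicate 1. DMRT1A to DMRT1C are counted here by their R1 label alone, and where their copies lie was not looked at. Among the 4 telomeric elements, the retrotransposons that maintain fly chromosome ends, TART_B1 rose. It had 281 and 329 in GFP_KD, against 491 and 431 in enok_KD, with a log2 fold change of 0.60 ± 0.19 (edgeR adjusted p = 0.0276) that passed under 5 of 13 alternatives. HETA, TAHRE and TART had −0.06, 0.05 and −0.06. With 18870 and 19373 in GFP_KD, against 19302 and 17335 in enok_KD, HETA overlapped between the groups. The 4 telomeric elements together had 26292.8 and 27317.1 in GFP_KD, against 27244.8 and 24619.5 in enok_KD, which overlapped as well.

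The internal and terminal parts of the same LTR retrotransposon often differed. Of 56 internal parts tested 10 rose (17.9%) and 2 fell (3.57%), and of 57 LTR parts 1 rose and 1 fell (1.75% each), as compared with 10.7% and 3.41% of all elements. The median log2 fold changes were −0.07 and −0.11. LTR parts held far fewer reads, with summed normalised counts of 28091 and 29548 in GFP_KD, against 180357 and 177834 at internal parts. Fewer reads make a call harder to reach, and how far the calls follow read number was not tested. In 52 families both parts were tested, and in 36 of them both values had the same sign, 15 positive and 21 negative. The internal part was positive and the LTR part negative in 11 families, the reverse held in 5, and Pearson's r across the families, which share their libraries, was 0.373 (Spearman's rho 0.247). At the 9 families whose internal part rose, the LTR part rose at 1, Copia, and had a positive value at 5. The widest gaps were at TRANSPAC, TABOR and QUASIMODO, named here after their values were seen, with LTR parts at −0.46, −0.41 and −0.28 against internal parts at 0.86, 0.59 and 0.64. At roo, the most numerous LTR retrotransposon in these tables by reads, ROO_I had 31564 and 31191 in GFP_KD, against 43843 and 44243 in enok_KD. Those replicates were among the closest of all called elements, and the log2 fold change was 0.49 ± 0.16 (edgeR adjusted p = 0.0301), whereas ROO_LTR had −0.13 ± 0.15. ROO_I kept 0.45 to 0.50 when any 1 library was left out, but passed under only 4 of 13 alternatives. The differences between parts were not tested as such.

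**Figure D3:**
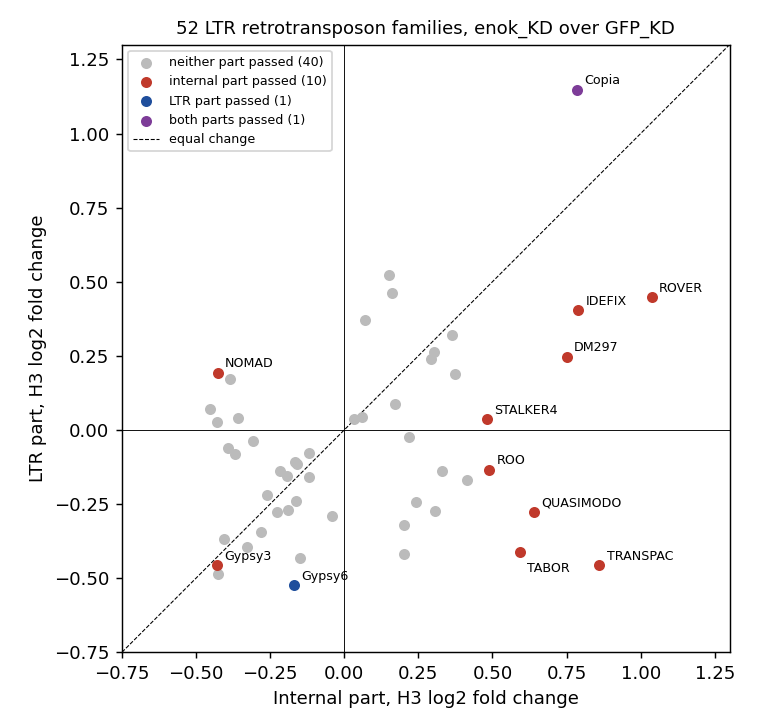
H3 log2 fold change of enok_KD over GFP_KD for the internal part (x axis) and the LTR part (y axis) of 52 LTR retrotransposon families, 1 point per family, with the families named in which a part passed the threshold. Points below the dashed line of equal change have the higher value in the internal part, which was so in 32 families, and Copia alone passed in both parts.

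The families whose RNA was reported as raised in enok mutants were looked at as a list of 11 elements. The families came from the study's RNA data and not from these libraries. The study names the family GATE and not Batumi. The BATUMI entries stand in for GATE here because the class label of BATUMI_I names it. None of the 11 passed with edgeR, DESeq2 or voom, which called 29 (14.1%), 24 and 25 of all 205 elements. A list of 11 is too short for a count of 0 to be read against those shares. Of the 11, 3 had an unadjusted edgeR p under 0.05, 7 were positive and 4 negative. Their median log2 fold change was 0.04, which turned to −0.12 under total counts and was also negative without GFP_KD replicate 1 or enok_KD replicate 1. BURDOCK_LTR (0.52 ± 0.24), BARI1 (0.36 ± 0.21), BLOOD_I (0.31 ± 0.15) and BURDOCK_I (0.15 ± 0.16) were the highest. BARI_DM, the other entry of the DNA transposon Bari, was the lowest at −0.44 ± 0.17 (edgeR adjusted p = 0.0657), with 1125 and 1022 in GFP_KD, against 686 and 894 in enok_KD. It passed under 2 of the 9 alternatives that left out no library. BLOOD_LTR (−0.27 ± 0.19), HMSBEAGLE_I (−0.17 ± 0.15), BATUMI_I (0.03) and BATUMI_LTR (0.04) lay between. Of the most abundant entries, DNAREP1_DM, an interspersed repeat that the tables label Penelope, had 21770 and 21827 in GFP_KD, against 21734 and 26733 in enok_KD and did not pass (0.15 ± 0.16).

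H3K23ac at these elements was read as a second antibody on chromatin of the same knockdowns. With the same edgeR test it passed at 0 of 202 elements, and 20 had an unadjusted p under 0.05. At the 22 elements with higher H3 the median H3K23ac log2 fold change was 0.10, with 17 positive and 5 negative, as compared with 0.04 for all elements, and at the 7 with lower H3 it was −0.09. DMSAT6 had 528 and 514 normalised H3K23ac counts in GFP_KD and 536 and 362 in enok_KD, which overlapped, and ROVER-I_DM had 1225 and 1298 as compared with 1070 and 1380. Whether the antibodies differed at these elements was not tested here.

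At piRNA clusters, H3 was higher upon enok knockdown at 12 of 94 clusters (12.8%) and lower at 5 (5.32%), 17 in all (18.1%; edgeR adjusted p under 0.05). Cluster 9 on the X chromosome stood out by size and by reads, the other 11 that rose were spread over the arms, chromosome 4 and heterochromatic scaffolds, and the 5 that fell all lay on heterochromatic scaffolds. The well known clusters 42AB, 38C, 20A and flamenco did not pass. The median log2 fold change was 0.01, and 13 higher and 9 lower clusters had an unadjusted p under 0.05. Both enok_KD libraries lay above both GFP_KD libraries at 23 clusters (24.5%) and below both at 29 (30.9%), 52 in all (55.3%). Scaling by total counts moved the median by −0.152 and gave 7 higher and 23 lower, and scaling by the transposon table gave 10 higher and 2 lower. No cluster passed without either of the GFP_KD libraries, and 6 and 4 passed without enok_KD replicate 1 and 2. These fits take the spread of the single library from the other group, and without GFP_KD replicate 1 or 2 the log2 fold changes were 1.06 and 0.90 at cluster 9 and 0.54 and 0.46 at cluster 39.

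Cluster 9 lies at 21759393 to 21844063 on chromosome X (dm3), proximal to flamenco. It had 6262 and 5629 normalised counts in GFP_KD and 10414 and 13173 in enok_KD, and its share of all cluster reads was 10.4% ± 0.630 and 18.6% ± 2.73 (SD, n = 2). The groups were far apart, and per kilobase its level went from 70.2 to 139 normalised counts. Its log2 fold change of 0.99 ± 0.10 (edgeR adjusted p = 1.05e-05) was 0.81 without enok_KD replicate 2 and 1.15 without replicate 1. Its raw counts, 6925, 7292, 8552 and 10242, ran with those of ROVER-I_DM, 8678, 8692, 10120 and 13155 over the same libraries. A read in a copy of an element inside a cluster can enter both tables, and how many reads the 2 entries share was not tested.

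**Figure D4:**
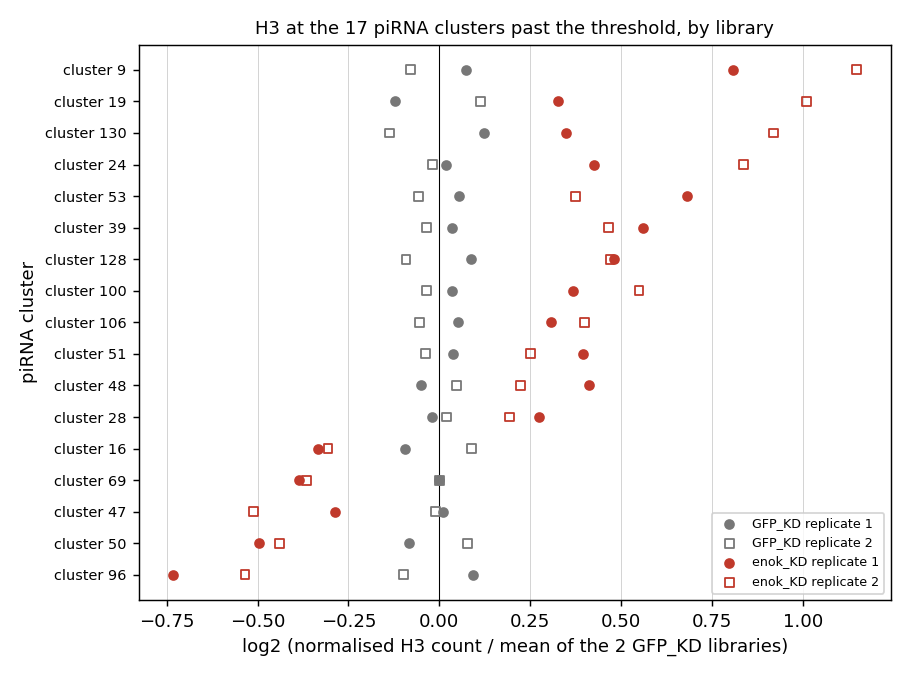
Normalised H3 count of each library at the 17 piRNA clusters past the threshold, as log2 of its ratio to the mean of the 2 GFP_KD libraries (x axis; grey, GFP_KD; red, enok_KD; filled circles, replicate 1; open squares, replicate 2). The enok_KD libraries lie between 0.19 and 1.15 at the 12 clusters that rose and between −0.73 and −0.29 at the 5 that fell, and the GFP_KD libraries between −0.14 and 0.12.

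Clusters 39, 53 and 100 rose as well. The log2 ratio of enok_KD replicate 2 over replicate 1 was −0.09, −0.31 and 0.18 at these, as compared with 0.34 at cluster 9. Cluster 39 (2R, 744684 to 782837) had 330.0 and 314 in GFP_KD, against 475 and 445 in enok_KD, a log2 fold change of 0.52 ± 0.09 (edgeR adjusted p = 0.00115). Cluster 53 (3RHet, 533743 to 579880) had 1551 and 1437 as compared with 2394 and 1936, a log2 fold change of 0.54 ± 0.09 with the same adjusted p. Its log2 fold change was 0.38 without enok_KD replicate 1 and 0.68 without replicate 2. Cluster 100 (3LHet, 2180368 to 2230834) had 960 and 915 as compared with 1210 and 1372, or 0.46 ± 0.08. All 3 passed under 11 of 13 alternatives, as did cluster 9, and failed among these only when 1 GFP_KD library was left out. Cluster 24 (3LHet, 163582 to 206577) had 328 and 320 in GFP_KD, against 435 and 579 in enok_KD. Its log2 fold change of 0.64 ± 0.12 (edgeR adjusted p = 0.00115) was 0.43 without enok_KD replicate 2 and then did not pass.

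Among the thinner clusters, cluster 19 (X, 11089529 to 11095706) had 66.9 and 78.7 in GFP_KD, against 91.3 and 147 in enok_KD, and cluster 130 (3LHet, 660546 to 687580) had 82.3 and 68.7 as compared with 96.2 and 143. Their log2 fold changes of 0.69 ± 0.22 and 0.66 ± 0.20 (both edgeR adjusted p = 0.0401) were 0.32 and 0.36 without enok_KD replicate 2, which was the high library at both. Cluster 128 (2R, 3321225 to 3327008) had 153 and 135 in GFP_KD, against 201 and 199 in enok_KD, or 0.48 ± 0.13. The remaining clusters that rose, 106 on chromosome 4, 51 on 2L, 48 on 3L and 28 on 2R, had log2 fold changes of 0.36, 0.33, 0.32 and 0.23. With DESeq2 in place of edgeR, clusters 19, 130, 128, 106, 51, 48 and 28 did not pass, nor did 4 of the 5 that fell, all but cluster 50.

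The 5 clusters that fell were on 3RHet and 2RHet. Cluster 50 (3RHet, 617644 to 658939) had 339 and 379 in GFP_KD, against 255 and 265 in enok_KD, a log2 fold change of −0.47 ± 0.10 (edgeR adjusted p = 0.00582). Cluster 47 (2RHet, 1415904 to 1491914) had 519 and 512 as compared with 423 and 361, or −0.39 ± 0.09 (edgeR adjusted p = 0.0107). These were the calls among the 5 that passed most often, under 9 of 13 alternatives each. Cluster 69 (3RHet) had −0.38 ± 0.11, from 245 and 245 to 188 and 190.4, and cluster 16 (3RHet) had −0.32 ± 0.10. Cluster 96 (3RHet, 2178310 to 2199481) had the largest fall, −0.63 ± 0.20 (edgeR adjusted p = 0.0401), but at a mean of only 81.25 counts it passed under 4 of 13 alternatives.

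By place, the 42 tested clusters on the assembled arms (2L, 2R, 3L, 3R and X) held 7 that rose (16.7%) and none that fell, with 28 positive values. The 47 on heterochromatic scaffolds held 4 that rose (8.51%) and 5 that fell (10.6%), with 31 negative values. Over all clusters 12.8% rose and 5.32% fell, and the difference by place was not tested. The medians were 0.08 and −0.06, and under the alternatives the arm median stayed 0.03 to 0.10 above that of all clusters and the scaffold median 0.04 to 0.11 below it. Under total counts both medians were negative (−0.07 and −0.21). Within the scaffolds, 3 of the 15 tested clusters on 3LHet rose and none fell. On 3RHet 1 of 18 rose (5.56%) and 4 fell (22.2%), of which only cluster 50 passed with DESeq2. The median log2 fold changes were −0.06 on 3LHet and −0.13 on 3RHet, and the difference between these scaffolds was not tested. On chromosome 4, 1 of 4 clusters rose.

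**Figure D5:**
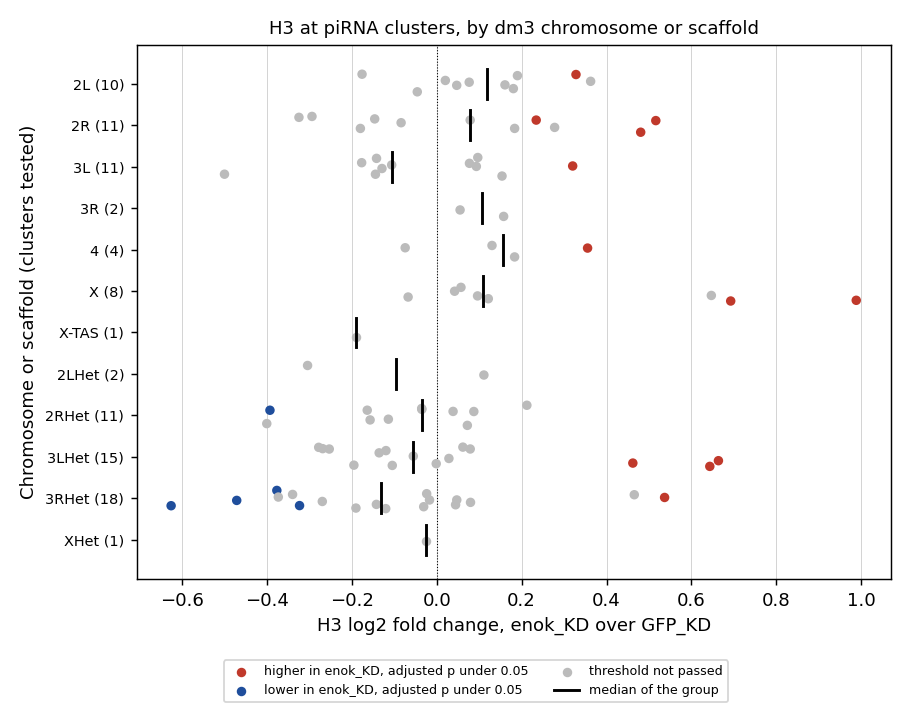
H3 log2 fold change of enok_KD over GFP_KD (x axis) for each of the 94 tested piRNA clusters, in rows by chromosome arm or heterochromatic scaffold of dm3. Red and blue points passed the threshold as higher and lower, grey points did not, and a bar marks the median of each row. The blue points are confined to 2RHet and 3RHet, and cluster 9 on X is the rightmost point at 0.99.

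The clusters best known for their piRNAs did not pass in the main fit, where their log2 fold changes lay between −0.15 and 0.10. Cluster 1 (42AB; 2R, 2144349 to 2386719), the main dual-strand cluster of the germline, had 1031 and 1019 in GFP_KD, against 939 and 913 in enok_KD. The groups did not overlap, but the log2 fold change of −0.15 ± 0.07 did not pass (edgeR adjusted p = 0.235). Cluster 1 passed under 1 of 13 alternatives, and its log2 fold change ran from −0.30 to −0.12 across them. Cluster 8 (flamenco; X, 21505666 to 21684449), the uni-strand cluster of the follicle cells, had 471 and 497 as compared with 465 and 534, which overlapped (0.04 ± 0.09). Cluster 2 (20A), another uni-strand cluster of the X chromosome, had 0.06 ± 0.10, cluster 5 (38C) had −0.05 ± 0.10 and cluster 6 (80EF) had 0.10 ± 0.08. In GFP_KD these 5 had 2.71 to 18.2 normalised counts per kilobase, around the median of 7.10 over the 94 tested clusters. The densest were far above it, with 359 at cluster 92 (XHet), 306 at cluster 4 on the X-TAS subtelomeric repeat and 166 at cluster 22 at the tip of X. Cluster 92, the entry with most reads, had 12447 and 11952 in GFP_KD, against 11953 and 12040 in enok_KD, a log2 fold change of −0.02 ± 0.08. Clusters 3, 22 and 4 had −0.07, −0.07 and −0.19, of which cluster 4 came closest to the threshold (edgeR adjusted p = 0.0966).

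None of the 6 clusters listed for lower RNA in both enok mutants passed in the main edgeR fit, with DESeq2 or with voom. Over all 94 tested clusters 17 (18.1%), 6 and 16 passed with these 3 tools. Lists of 6 and, below, 7 clusters are too short for a count of 0 to be read against those shares. In the main fit 0 of the 6 had an unadjusted edgeR p under 0.05. Their median log2 fold change was −0.08, with 2 positive and 4 negative. Under the alternatives this median ran from −0.24 with total counts to 0.00 without enok_KD replicate 1. The 7 clusters labelled for severely lower piRNAs share 4 members with the first list. None of them passed with any of the 3 tools, 1 had an unadjusted edgeR p under 0.05, and they had a median of 0.13 that was −0.02 under total counts. Of their members, cluster 33 at the start of 2L was the highest (0.36 ± 0.14, edgeR adjusted p = 0.0983), with 142 and 117 in GFP_KD, against 163 and 168 in enok_KD. Clusters 29, 11, 78 and 42 had 0.18, 0.16, 0.13 and 0.06, clusters 1 and 5 (42AB and 38C, in both lists) have their values above, and the pair that is only in the first list had −0.14 and −0.12. The cluster with −0.14 passed under 1 of 13 alternatives, as did cluster 1, and both stayed negative under all of them. Both lists came from RNA data of the study and not from these libraries.

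H3K23ac passed at 9 of 85 clusters (10.6%), 7 higher (8.24%) and 2 lower (2.35%). Of the 12 clusters with higher H3, 2 also had higher H3K23ac, cluster 19 (0.70 ± 0.18, edgeR adjusted p = 0.00279) and cluster 128 (0.49 ± 0.15, edgeR adjusted p = 0.0151), and over the 12 there were 6 positive and 6 negative H3K23ac values. At cluster 19 the H3K23ac counts were 102 and 97.0 in GFP_KD, against 110 and 204 in enok_KD, so that replicate 2 of enok_KD was the high library with both antibodies. At cluster 9 they were 647 and 611 as compared with 559 and 531, a log2 fold change of −0.21 ± 0.14 that did not pass, and cluster 24 had −0.49 ± 0.21, which did not pass either. At the 5 clusters with lower H3, 2 H3K23ac values were positive and 3 negative, and none passed.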

How the data were processed

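H3 ChIP-seq counts of ovaries were analysed in 2 knockdowns with 2 libraries each, which the study's methods call independent replicates. Per the study's methods and processing notes, the authors trimmed the single-end reads (Trimmomatic), aligned them to dm3 with Bowtie2 2.2.1 without mismatches, kept unique positions and used bedtools, and deposited raw read counts per transposon element and per piRNA cluster. Repeats with identical copies are therefore seen through their diverged copies. The counting program, repeat annotation and treatment of duplicates are not given in the sources used here. The cluster tables also hold the authors' DESeq2 comparison (means, fold changes and p-values), which was not used.

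Each table was analysed separately. Library sizes, the totals of the table, were scaled by TMM (factors 0.944 to 1.06 for transposons and 0.936 to 1.07 for clusters), features with a mean of at least 10 counts were kept, and groups were compared by quasi-likelihood F-tests in edgeR 4.0.16 (R 4.3.3) without covariates, adjusted by Benjamini-Hochberg over all tested features. Features were called at an adjusted p under 0.05. Normalised counts are counts divided by the scaled library size times the mean of these sizes. The biological coefficient of variation was 0.113 and 0.0549. With 2 against 2 libraries an exact test of 1 feature cannot go below p = 0.333, so p-values borrow spread across features. The chi-square per degree of freedom between replicates was 5.40 in GFP_KD and 48.0 in enok_KD at transposons and 1.65 and 5.30 at clusters, so all 4 were kept as separate libraries. The fit was also run on simulated counts that gave both groups the same spread. Because the spread of these libraries differs between the groups, that run does not bear on how reliable the calls are.

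Alternatives were DESeq2 size factors, total counts, the other table's sizes, no filter or a mean of at least 100 counts, DESeq2 1.42.0, voom of limma 3.58.1 with group quality weights, a fit with the H3K23ac libraries, a replicate block and leaving out each library. Named features were those past the threshold up to the 15 largest in each direction, the 5 with most counts, and the members of the lists, unless stated. Members and lists were chosen with earlier results of these data known.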

Additional observations from a re-analysis of the deposited data

How the results depend on the processing

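All 29 elements and 17 clusters kept their direction in every fit in which they were tested, but how many passed depended on the settings, and the cause of these differences was not tested. At transposons, against 29 (22 higher and 7 lower), 10 passed with DESeq2 size factors (9 and 1), 10 without a filter (9 and 1), 6 with a mean of at least 100 counts (6 and 0), 24 with DESeq2 (20 and 4), 25 with voom (21 and 4), 5 in 1 fit of 8 libraries with H3K23ac (5 and 0), 37 with the library sizes of the cluster table (20 and 17) and 58 with total counts (15 and 43). At clusters, against 17 (12 higher and 5 lower), 30 passed with total counts (7 and 23), 12 with the sizes of the transposon table (10 and 2), 6 with DESeq2 (5 and 1), and 14 to 17 in the other fits of all 4 libraries without a block. Leaving out 1 library at a time gave 0 to 110 elements and 0 to 6 clusters, with 15 elements, and 16 and 15 clusters, at an unadjusted p under 0.05 where the count was 0. A lone library is then assumed to vary like the other group, whose replicates decide the spread. Replicate numbers are not stated to pair libraries, and the replicate differences of the knockdowns correlated at −0.387 over elements and −0.130 over clusters. With a replicate block 13 elements (12 and 1) and 10 clusters (8 and 2) passed. A crossed pairing, added after seeing the data, gave 53 elements and 0 clusters (20 at an unadjusted p under 0.05).

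Of 1154 values of single elements or clusters under an alternative, 811 kept direction and side of the threshold, 25 newly passed, 283 no longer passed and 35 turned in sign. Those that turned were small log2 fold changes of entries that did not pass in the report, and after turning BATUMI_I alone passed, without enok_KD replicate 1 (−0.14, edgeR adjusted p = 0.0477). Under total counts they were −0.0059 at DNAREP1_DM, −0.0069 at BURDOCK_I, −0.0452 at DMRT1A, −0.11 at TAHRE, −0.12 at BATUMI_LTR, −0.13 at BATUMI_I, −0.0218 at cluster 78, −0.0543 at cluster 6, −0.10 at cluster 2, −0.10 at cluster 42 and −0.11 at cluster 8. R1-2_DM was 0.0103 among elements of 100 or more mean counts and 0.0043 in the fit of 8 libraries. Cluster 92 was 0.004 with the sizes of the transposon table and 0.0022 in the fit of 8 libraries. When 1 library was left out the log2 fold change ran from −0.012 to 0.38 at DMRT1B, −0.0043 to 0.29 at DNAREP1_DM, −0.0455 to 0.33 at BURDOCK_I, −0.081 to 0.29 at DMRT1A, −0.056 to 0.11 at TAHRE, −0.11 to 0.17 at BATUMI_LTR, −0.14 to 0.19 at BATUMI_I, −0.35 to 0.19 at R1-2_DM, −0.14 to 0.0135 at HETA, −0.22 to 0.0215 at HETRP_DM, −0.31 to 0.0566 at R2_DM, −0.19 to 0.45 at cluster 11, −0.0251 to 0.11 at cluster 42, −0.0599 to 0.14 at cluster 8, −0.18 to 0.0777 at cluster 5 and −0.28 to 0.0485 at the cluster of the lower-RNA list whose value was −0.12.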
